A study of Mus musculus with 18 samples.

Results

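The hippocampus of wild-type (WT) mice that had gone through original and then reversal learning in the Morris water maze (WT_RL) was compared with that of untrained WT mice (WT_Basal). The comparison takes 6 of the 18 libraries of the series, 3 from each group, picked by the genotype and training state in their titles, and all 15329 listed genes. All animals were C57BL/6J and 8 to 10 weeks old, and the labels of both WT groups name no engineered allele and no agent. The other 12 libraries, from WT mice after original learning alone (WT_OL) and from *Ccny* knockout (KO) mice in the same 3 states (KO_Basal, KO_OL and KO_RL), entered the estimate of the variance and are quoted only beside results of WT_RL against WT_Basal. *Ccny* encodes cyclin Y, and the study asked how its loss alters spatial learning and the switch to a new goal. In the reversal task a hidden platform is moved, so that a mouse that has learned one place must learn another. No group of the series swam without a platform to learn, and the time from the last trial to collection of the tissue is not given in the sources used here, so that learning, swimming and handling cannot be told apart in what follows. The labels number the 3 libraries of a group and do not say that each is a separate animal. They are treated as mice here. The p-values rest on the spread between libraries within a group, pooled over all 18 libraries.

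The hippocampus lays down memory of places, and its pyramidal and granule neurons answer strong synaptic input with a fast wave of immediate early genes such as *Fos* and *Arc*, followed by slower effector genes. The stress hormone corticosterone acts on the same tissue through the glucocorticoid receptor, which switches on genes such as *Fkbp5*, *Tsc22d3* and *Plin4* in neurons, glia and vessels. Cells that make more secreted and membrane protein raise the chaperones of the endoplasmic reticulum, led by *Hspa5*, and cells under heat or proteotoxic load raise the heat shock proteins. Cooling of cells is known to raise RNA-binding proteins such as *Rbm3* and *Cirbp*.

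Between 29248557 and 30721322 reads per WT_Basal library and between 33377861 and 37915576 per WT_RL library fell on the listed genes, so that 1 read was worth 0.0274 to 0.0333 CPM, the unit of normalized read counts used below. Libraries of WT_RL differed more from each other than those of WT_Basal, with a chi-square per gene against counting noise of 36.6 to 72.3 in pairs of WT_RL libraries and 8.83 to 19.3 in pairs of WT_Basal libraries. The 6 libraries also differed in how they sampled GC-rich transcripts. Across 13900 genes, the deviation of a library from the mean of all libraries correlated with transcript GC content at r of -0.46, -0.34 and -0.49 in WT_Basal and 0.06, 0.35 and -0.02 in WT_RL, a description over genes that share a library. Every WT_Basal library had a lower r than every WT_RL library, and also a lower mapping rate as reported by the study. Training state therefore cannot be told apart from these differences between the libraries. Single libraries of both groups carried genes known from other tissue, WT_RL replicates 2 and 3 those of thalamus and midbrain and WT_Basal replicates 2 and 3 that of pituitary growth hormone, and their values are given near the end. In bulk tissue, fewer cells of a type and less RNA per cell cannot be told apart.

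At an adjusted p under 0.05, 2407 of 15329 genes (15.7%) were called different between WT_RL and WT_Basal, 1270 higher (8.28%) and 1137 lower (7.42%) after reversal learning. Log2 fold changes are taken between the mean log2(CPM + 1) of each group, and the added 1 pulls them toward 0 where a gene has few CPM. Signed values given for a gene without a unit are log2 fold changes of WT_RL against WT_Basal unless another pair of groups is named. Most differences were small, with a median log2 fold change of 0.37 among the higher genes and -0.44 among the lower genes, and 158 higher genes (1.03%) and 240 lower genes (1.57%) were past 1.5-fold as well. By the thresholds of the study, past 1.5-fold with an unadjusted p under 0.05, 458 genes (2.99%) differed on log2(CPM + 1), 187 higher (1.22%) and 271 lower (1.77%). With CPM floored at 1, as the methods of the study describe, 640 genes passed these thresholds, 234 higher and 406 lower. At any fold, 4649 genes (30.3%) had an unadjusted p under 0.05. The 3 WT_RL mice lay wholly above or below the 3 WT_Basal mice for 5260 genes (34.3%), 2702 above (17.6%) and 2558 below (16.7%), among them 1226 of the genes called higher and 1119 of those called lower. The genes called higher had a median transcript GC content of 54.6% and those called lower 42.1%, against 49.8% over all genes. When each library was first corrected for GC content, 1192 genes (7.78%) were called, 649 higher (4.23%) and 543 lower (3.54%), of which 479 and 420 were among the genes called without the correction in the same direction. Values below are without the correction, and a call of a named gene that the correction ends is marked as such. Leaving out 1 library at a time gave 1137 genes without WT_Basal replicate 3, 1184 without WT_Basal replicate 1, 1513 without WT_RL replicate 2 and 1821 to 2323 without another of the 6. Without the TMM factors, the scale factors of the deposited values, the split of the calls turned to 963 higher and 1559 lower.

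**Figure D1:**
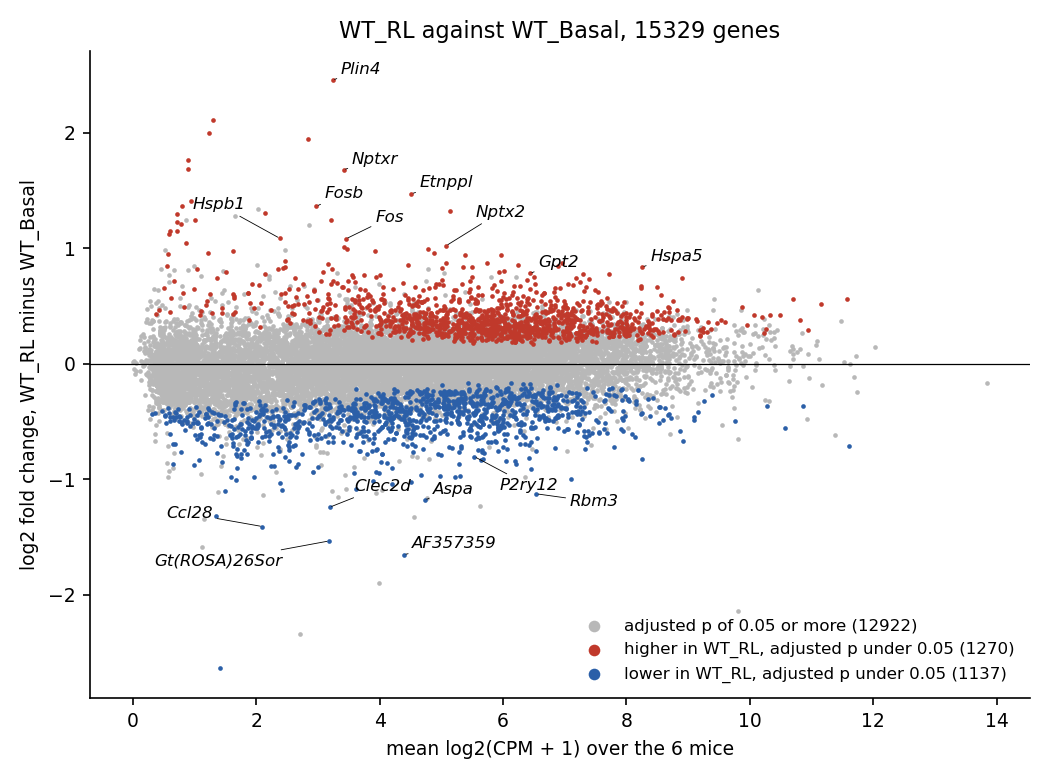
Each point is 1 of 15329 genes, with its mean log2(CPM + 1) over the 6 mice on the x axis and its log2 fold change, WT_RL minus WT_Basal, on the y axis. Red points are the 1270 genes called higher and blue points the 1137 called lower, and *Plin4* lies above all named genes at 2.45.

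*Plin4*, which encodes a coat protein of lipid droplets and is a known glucocorticoid target, showed the largest rise among genes whose mice did not overlap. Its level was 3.83, 2.76 and 2.61 CPM across the WT_Basal mice and 25.9, 9.81 and 36.1 CPM across the WT_RL mice. All 3 trained mice were above all untrained ones, with WT_RL replicate 2 the lowest of them. The log2 fold change was 2.45 (SE 0.356, adjusted p = 0.000444), while WT_OL differed from WT_Basal by 0.18 (adjusted p = 0.795), and WT_RL from WT_OL by 2.27 (SE 0.356, adjusted p = 0.0210). No call between WT_RL and WT_OL, here or below, held without WT_OL replicate 1 or in a fit of only the 6 libraries of WT_RL and WT_OL, each of which called 0 genes. *Plin4* lies on chromosome 17, 56100591 to 56109803 on the minus strand (GRCm38), and its exons meet those of *Hdgfl2* on the other strand. The 250 bases before its start (RefSeq, GRCm38.p6, chr17:56109783-56110032, minus strand) are shown because the gene leads the comparison. They were searched on both strands for 4 motifs, the cyclic AMP response element TGACGTCA, the E-box CACGTG, the EGR site GCGTGGGCG and the NF-Y box CCAAT. Capitals mark the only match, an NF-Y box on the other strand. In windows that reach 50 bases past the start, this box was found in 41.1% of the 27025 genes with a window.
Plin4: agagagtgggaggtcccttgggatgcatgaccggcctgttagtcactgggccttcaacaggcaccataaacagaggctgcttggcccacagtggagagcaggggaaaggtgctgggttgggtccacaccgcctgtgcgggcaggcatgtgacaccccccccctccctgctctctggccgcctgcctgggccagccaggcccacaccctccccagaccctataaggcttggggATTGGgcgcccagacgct

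**Figure D2:**
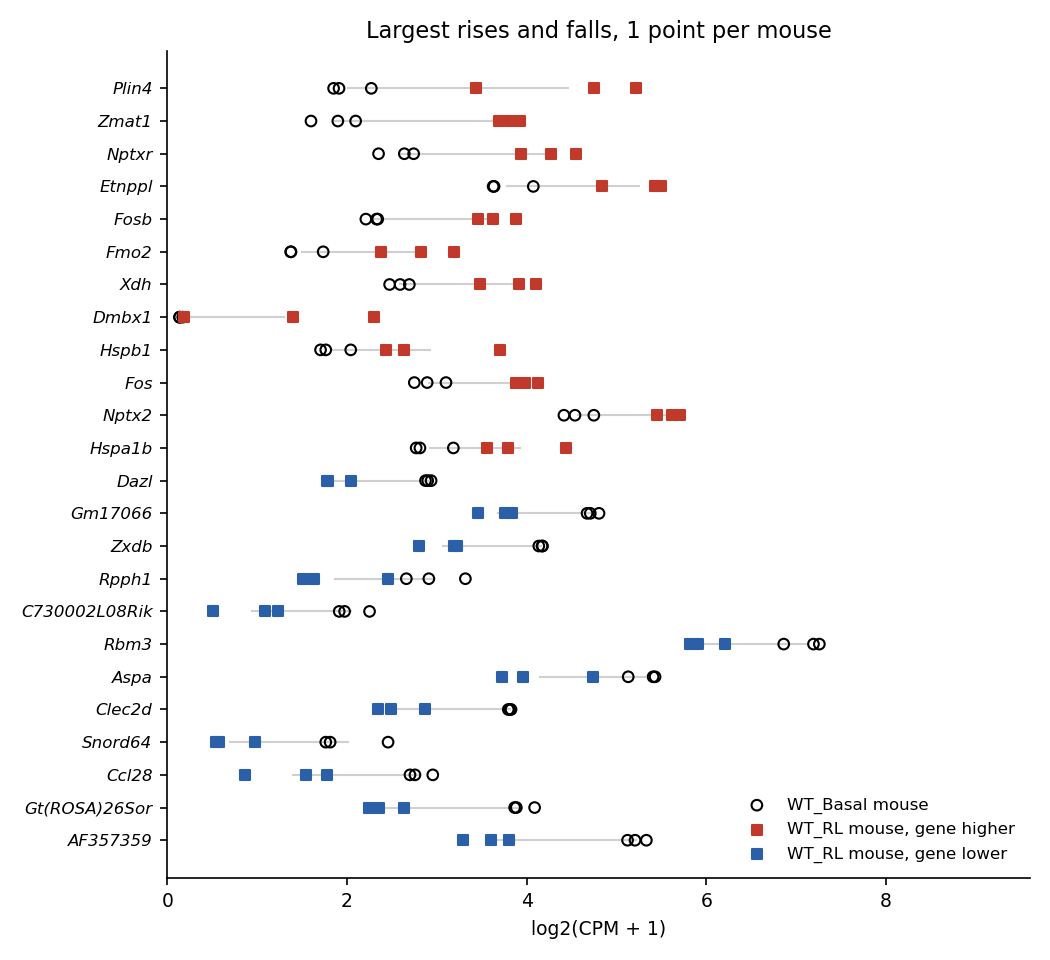
The 12 rows at the top show the largest rises and the 12 at the bottom the largest falls among called genes whose mice do not overlap, and the x axis gives log2(CPM + 1). Open circles are WT_Basal mice and squares WT_RL mice, red where the gene was higher and blue where it was lower, and in each row the 3 squares lie on one side of the 3 circles.

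Next to *Plin4*, the genes that rose most were of mixed kinds. *Nptxr* encodes the neuronal pentraxin receptor and *Nptx2* a secreted pentraxin, both of which gather AMPA receptors at synapses. *Nptxr* was at 5.69, 5.23 and 4.11 CPM in WT_Basal and 22.4, 18.3 and 14.4 CPM in WT_RL, a log2 fold change of 1.68 (SE 0.167, adjusted p = 2.99e-05), and its exons overlap those of *Npcd* on the same strand, where reads cannot be assigned to one of them with certainty. *Nptx2* went from 22.2, 25.9 and 20.3 to 42.6, 48.1 and 51.1 CPM (log2 fold change 1.02, adjusted p = 0.000325). In neither gene did the groups overlap. *Etnppl*, an astrocyte-enriched enzyme that breaks down phosphoethanolamine, rose from 11.4, 11.4 and 15.8 to 27.5, 43.97 and 42.05 CPM (log2 fold change 1.47, adjusted p = 0.00414). *Xdh*, which encodes the enzyme of the last steps of purine breakdown, rose from 4.56, 5.03 and 5.47 to 10.1, 16.3 and 14.1 CPM (log2 fold change 1.25, adjusted p = 0.00140). WT_RL replicate 1 was the lowest of the trained mice for both genes and still above all untrained ones. *Fmo2*, a flavin-containing monooxygenase, rose by a log2 fold change of 1.30 (adjusted p = 0.000808). The small heat shock gene *Hspb1* rose by 1.09 (adjusted p = 0.0128) and the heat-inducible *Hspa1b* by 1.01 (adjusted p = 0.0127).

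2 of the 12 largest rises were lost in most fits that left out a library. *Zmat1*, a zinc finger gene, was at 2.73, 2.03 and 3.28 CPM in WT_Basal and 13.03, 11.9 and 14.2 CPM in WT_RL, close together within each group. Its log2 fold change was 1.95 (SE 0.612, adjusted p = 0.0401), and the call was lost in each of the 6 fits that left out 1 library, with adjusted p from 0.0797 to 0.105. The error of the fit comes from all groups, and *Zmat1* was at 18.1 ± 1.31 CPM in KO_Basal and 9.82 ± 6.76 CPM in KO_RL (SD, n = 3 each). *Dmbx1*, a homeodomain factor of the developing midbrain, was at 0.0999, 0.0999 and 0.127 CPM in WT_Basal and 0.137, 1.64 and 3.94 CPM in WT_RL, so that WT_RL replicates 2 and 3 carried it. It was called in 1 of the 6 fits that left out a library.

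Among the largest falls, several genes make short or noncoding RNA. *AF357359* went from 33.9, 35.9 and 39.3 to 11.2, 8.82 and 12.99 CPM, a log2 fold change of -1.65 (SE 0.257, adjusted p = 0.000769). Its symbol was not found in the gene annotation. *Gt(ROSA)26Sor*, the noncoding transcript of the Rosa26 locus (chromosome 6, 113067428 to 113077333), went from 16.02, 13.6 and 13.8 to 4.14, 3.73 and 5.21 CPM (log2 fold change -1.53, adjusted p = 1.89e-05), and it shares exonic bases with *Thumpd3*, which is read from the opposite strand. In both genes every WT_RL mouse was below every WT_Basal mouse. *Snord64*, a small nucleolar RNA, fell with a log2 fold change of -1.31 (adjusted p = 0.00204). *Rpph1*, the RNA of the nuclease RNase P, gave -1.09 (adjusted p = 0.0490) and was called in 1 of the 6 fits without a library. *C730002L08Rik* gave -1.10 (adjusted p = 0.00169), a call that ended with the GC correction (adjusted p = 0.0830), and *Gm17066* gave -1.04, and -0.51 with the correction. Exons of *Snord64*, *Rpph1* and *Gm17066* overlap those of *Gm38393*, *Ccnb1ip1* and *Rbm26* on the same strand, so that their reads cannot be assigned with certainty. *Snhg14*, given below, also overlaps *Gm38393*.

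The protein-coding genes with the largest falls were expressed at low to middle levels. *Ccl28*, a chemokine, went from 6.76, 5.76 and 5.51 to 0.823, 1.92 and 2.42 CPM (log2 fold change -1.41, adjusted p = 0.0110). *Clec2d*, a C-type lectin, went from 12.9, 13.2 and 13.1 to 4.09, 6.30 and 4.63 CPM (log2 fold change -1.24, adjusted p = 8.83e-05). Neither gene had a trained mouse within the untrained range. *Aspa*, the aspartoacylase of oligodendrocytes, went from 41.5, 34.04 and 42.1 to 14.6, 12.3 and 25.7 CPM (log2 fold change -1.18, SE 0.217, adjusted p = 0.00229). *Rbm3*, which encodes the cold-induced RNA-binding protein, went from 152, 115 and 145 to 72.8, 55.5 and 59.1 CPM (log2 fold change -1.13, SE 0.135, adjusted p = 0.000111). In both genes all trained mice were below all untrained mice, with WT_RL replicate 3 the nearest to them for *Aspa* and WT_RL replicate 1 for *Rbm3*. *Zxdb*, a zinc finger gene of the X chromosome, gave -1.09 (adjusted p = 0.000325) and *Dazl*, a germ-cell RNA-binding gene, -1.03 (adjusted p = 7.74e-05, and -0.66 with the GC correction).

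Heat shock and chaperone genes, 1 of 41 lists of response, pathway and cell type genes, rose in number. 17 of the 30 were called higher and 0 lower, against 8.28% and 7.42% of all genes, with a median log2 fold change of 0.45 against 0.0015 over all genes. The summed level of the list was 7632, 8338 and 8201 CPM in WT_Basal and 10110.0, 10060.0 and 10710.0 CPM in WT_RL, without overlap. With the GC correction 18 were called higher and 0 lower, and in the fits that left out a library 11 to 17. *Hspa5*, the master chaperone of the endoplasmic reticulum also known as BiP, led the members of that compartment. It went from 219, 206 and 259.6 to 363, 362 and 511 CPM, a log2 fold change of 0.84 (SE 0.128, adjusted p = 0.000667). *Hspa1a* and *Hspa1b*, near-identical heat-inducible copies between which reads may be split, gave 0.87 (adjusted p = 0.0220, lost with the GC correction at 0.0924) and 1.01. *Hspb1* went from 2.26, 2.40 and 3.12 to 4.39, 5.23 and 12.02 CPM.

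The other called members, named here after their values were seen, come from both the endoplasmic reticulum and the cytosol. In the endoplasmic reticulum, *Pdia4* and *Pdia6*, which form disulphide bonds, rose by log2 fold changes of 0.75 and 0.45. The lectin chaperones *Calr* and *Canx* rose by 0.59 and 0.29, the latter by 0.45 with the GC correction, and *Hsp90b1*, the HSP90 of the compartment, by 0.45. *Calr* stood at 284, 309 and 326 CPM in WT_Basal and 428, 469 and 486 CPM in WT_RL, and *Hsp90b1* at 338, 350.4 and 373 and 453, 453 and 551 CPM, with no trained mouse inside the untrained range for either gene. In the cytosol, the constitutive *Hspa8* went from 1283, 1415 and 1411 to 1972, 2065 and 2008 CPM (log2 fold change 0.56, adjusted p = 0.000601). Its nucleotide exchange factor *Hsph1* rose by 0.67 (adjusted p = 0.00163), the co-chaperone *Stip1*, which links HSP70 to HSP90, by 0.51 and *Dnajb1*, an HSP40, by 0.58. WT_OL mice, which share the untrained controls, had 2 of the 30 called higher, where 9.50% of all genes were called (3.88% higher and 5.62% lower). In a direct comparison, 4 of the 30 were called higher in WT_RL than in WT_OL, namely *Hsp90b1* (log2 fold change 0.55, adjusted p = 0.0257), *Hsph1* (log2 fold change 0.59, adjusted p = 0.0451), *Calr* (log2 fold change 0.46, adjusted p = 0.0253) and *Pdia6* (log2 fold change 0.42, adjusted p = 0.0253), where 0.104% of all genes were called higher. These 4 calls were lost without WT_OL replicate 1.

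The promoters of this list were searched, as a choice made after its values were seen, for the endoplasmic reticulum stress element, an NF-Y box CCAAT and a CCACG with 9 bases of any kind between them, and for the heat shock element, GAA, TTC and GAA with 2 bases between each, on both strands of the window from 250 bases before to 50 after the start. 24 of the 30 genes had a window. The stress element was found in 37 of 27025 genes (0.137%) and in 5 of these 24 (20.8%), *Hspa5*, *Hsp90b1*, *Calr*, *Pdia6* and *Canx*, each of which was called higher, as were 15 of the 24 in all. The heat shock element was found in 0.662% of all genes and in 4 of the 24, of which *Hsph1* was called higher. The NF-Y box alone was present in 16 of the 24. A match describes letters in a window and not a site in use. The shares depend on sequence and on which genes were put into the list, and not on the levels measured here. Both elements are known from chaperone genes, which make up the list. Their shares there are therefore no result of the comparison. The 250 bases before the start of the 5 genes are printed with the stress element in capitals, read from CGTGG to ATTGG where it lies on the other strand. They are chr2:34771840-34772089 (plus strand), chr10:86705445-86705694 (minus, with a pair of matches), chr8:84846932-84847181 (minus), chr12:17266339-17266588 (plus) and chr11:50325674-50325923 (minus), in GRCm38.p6 from RefSeq, in the order of the lines.
Hspa5: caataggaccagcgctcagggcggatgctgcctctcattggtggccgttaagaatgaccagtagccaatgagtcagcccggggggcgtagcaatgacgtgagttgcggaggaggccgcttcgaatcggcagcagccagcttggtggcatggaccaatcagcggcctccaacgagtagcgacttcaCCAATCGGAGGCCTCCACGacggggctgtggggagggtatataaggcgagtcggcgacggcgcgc
Hsp90b1: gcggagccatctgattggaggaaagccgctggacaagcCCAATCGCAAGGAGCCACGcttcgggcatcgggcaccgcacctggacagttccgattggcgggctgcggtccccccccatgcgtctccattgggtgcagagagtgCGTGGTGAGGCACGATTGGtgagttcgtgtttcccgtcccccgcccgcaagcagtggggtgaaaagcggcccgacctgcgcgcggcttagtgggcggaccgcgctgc
Calr: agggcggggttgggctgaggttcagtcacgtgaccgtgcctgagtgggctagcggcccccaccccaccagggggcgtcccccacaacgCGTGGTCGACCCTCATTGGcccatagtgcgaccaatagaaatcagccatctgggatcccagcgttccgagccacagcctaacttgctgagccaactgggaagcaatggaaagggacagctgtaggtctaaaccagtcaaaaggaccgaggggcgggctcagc
Pdia6: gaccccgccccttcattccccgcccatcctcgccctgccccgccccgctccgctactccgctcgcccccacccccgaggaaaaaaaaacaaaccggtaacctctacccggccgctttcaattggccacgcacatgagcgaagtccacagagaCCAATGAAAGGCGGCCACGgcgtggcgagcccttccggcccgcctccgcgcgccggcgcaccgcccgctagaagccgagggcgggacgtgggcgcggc
Canx: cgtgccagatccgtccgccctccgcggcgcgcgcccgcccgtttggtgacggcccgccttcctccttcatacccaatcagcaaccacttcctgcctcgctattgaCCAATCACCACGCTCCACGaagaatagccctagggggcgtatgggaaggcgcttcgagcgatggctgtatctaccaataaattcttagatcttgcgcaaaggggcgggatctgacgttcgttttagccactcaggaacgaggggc

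Of genes that glucocorticoids are known to induce, 11 of 24 were called higher and 1 lower, with a median log2 fold change of 0.49. Over all genes 8.28% were called higher and 7.42% lower, and each list count below is read against these shares. They were 4.23% and 3.54% with the GC correction, and 3.88% and 5.62% between WT_OL and WT_Basal. With the GC correction the counts were 9 and 1. Besides *Plin4*, the list was led by *Cdkn1a*, an inhibitor of the cell cycle, which went from 6.83, 6.43 and 7.35 to 11.1, 17.9 and 15.8 CPM (log2 fold change 0.996, SE 0.186, adjusted p = 0.00250). *Mfsd2a*, the endothelial carrier of omega-3 lipids into brain, went from 19.01, 22.5 and 19.5 to 43.3, 44.9 and 33.6 CPM (log2 fold change 0.96, adjusted p = 0.000104). *Zbtb16*, a transcriptional repressor, went from 35.99, 43.8 and 36.5 to 74.8, 68.00 and 71.6 CPM (log2 fold change 0.87, adjusted p = 0.00153). For these genes all trained mice were above all untrained mice. Among members named after their values were seen, *Fkbp5*, which dampens the glucocorticoid receptor itself, rose by 0.62 (adjusted p = 0.00455), *Tsc22d3*, which encodes the anti-inflammatory protein GILZ, by 0.72 (adjusted p = 0.000325), *Hif3a*, a subunit of a hypoxia-inducible factor, by 0.72 and the kinase gene *Map3k6* by 0.82. The fall was that of *Ddit4*, an inhibitor of mTORC1, from 90.5, 85.4 and 75.95 to 62.8, 65.6 and 68.2 CPM (log2 fold change -0.35, adjusted p = 0.00413). WT_OL had 4 of the 24 called higher. WT_RL differed from WT_OL in 3 higher and 2 lower, against 0.104% and 0.157% of all genes, and in 0 without WT_OL replicate 1.

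Of the transcription factors that neuronal activity induces, 6 of 25 were called higher in WT_RL and 0 lower, with a median log2 fold change of 0.38, and 14 of 25 were called higher in WT_OL, which shares the untrained controls. Over all genes 8.28% were called higher in WT_RL and 3.88% in WT_OL. *Fos*, a subunit of the AP-1 factor, went from 7.59, 5.73 and 6.43 to 14.8, 13.8 and 16.4 CPM (log2 fold change 1.08, SE 0.219, adjusted p = 0.00404). *Fosb*, its relative, went from 4.03, 3.63 and 4.07 to 13.7, 11.4 and 10.02 CPM (log2 fold change 1.36, SE 0.152, adjusted p = 7.70e-05). The untrained mice lay below the trained ones in both. *Nfil3* rose by 0.82 (adjusted p = 9.02e-05) and *Egr4* by 0.75 (adjusted p = 0.00108). Others of the family, named after their values were seen, missed the threshold in WT_RL. *Egr1* was at 79.04, 79.6 and 91.5 CPM in WT_Basal and 117, 103 and 129.6 CPM in WT_RL (log2 fold change 0.47, adjusted p = 0.0555), *Egr2* gave 0.64 (adjusted p = 0.0693) and *Npas4* 0.67 (adjusted p = 0.118). In WT_OL, *Fos* was 1.97 above WT_Basal and *Egr2* 1.90, and the differences of WT_RL from WT_OL were -0.89 (adjusted p = 0.106) and -1.26 (adjusted p = 0.0351, a call lost without WT_OL replicate 1).

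Of the activity-induced effector genes, 5 of 27 were called higher and 0 lower, with a median of 0.14, and in WT_OL 9 of 27 were called higher. The shares of all genes called higher were 8.28% in WT_RL and 3.88% in WT_OL. *Nptx2*, given above, led them. *Arc*, which encodes a capsid-like protein of dendrites, was at 89.3, 89.02 and 85.95 CPM in WT_Basal and 163, 138 and 177 CPM in WT_RL (log2 fold change 0.84, SE 0.260, adjusted p = 0.0372), and the call was lost with the GC correction (adjusted p = 0.0960) and without any 1 of the 6 libraries. *Vgf*, a secreted neuropeptide precursor, went from 103, 125 and 103 to 201, 169.5 and 160.0 CPM (log2 fold change 0.68, adjusted p = 0.000601), and *Inhba*, the subunit of activin A, from 2.36, 2.40 and 2.005 to 4.33, 3.82 and 4.48 CPM (log2 fold change 0.68, adjusted p = 0.00176). Neither overlapped between groups. 3 of 13 feedback genes of the MAPK cascade were called higher, *Spry4* at 0.55, *Dusp5* at 0.63 and *Dusp4* at 0.57, of which *Spry4* was called with the GC correction (adjusted p = 0.0304).

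Of 20 core circadian clock genes, 4 were called higher and 0 lower, against 8.28% and 7.42% of all genes. *Per2*, a repressor of the clock, went from 32.2, 28.5 and 32.3 to 48.3, 46.5 and 57.2 CPM (log2 fold change 0.69, adjusted p = 0.000374). *Per1* gave 0.26 (adjusted p = 0.0352) and *Cry2* 0.26 (adjusted p = 0.0223), and both calls ended with the GC correction, at 0.344 and 0.263. *Nfil3*, counted also among the activity genes, was the other. *Per1* is counted also among the effector genes and the glucocorticoid-induced genes, and was called in 2 of the 6 fits without a library. The time of day at which each group was collected is not given in the sources used here. Of 4 cold-induced genes, 3 fell, with a median of -0.64. *Cirbp*, the relative of *Rbm3*, went from 72.98, 72.00 and 65.03 to 46.7, 47.9 and 36.4 CPM (log2 fold change -0.68, SE 0.112, adjusted p = 0.00122), and *Srsf5*, a splicing factor, from 228, 233 and 231 to 159.8, 149 and 147 CPM (log2 fold change -0.60, adjusted p = 0.000667, and -0.36 with the GC correction). None of the 3 overlapped between groups, and all 3 were called with the GC correction.

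**Figure D3:**
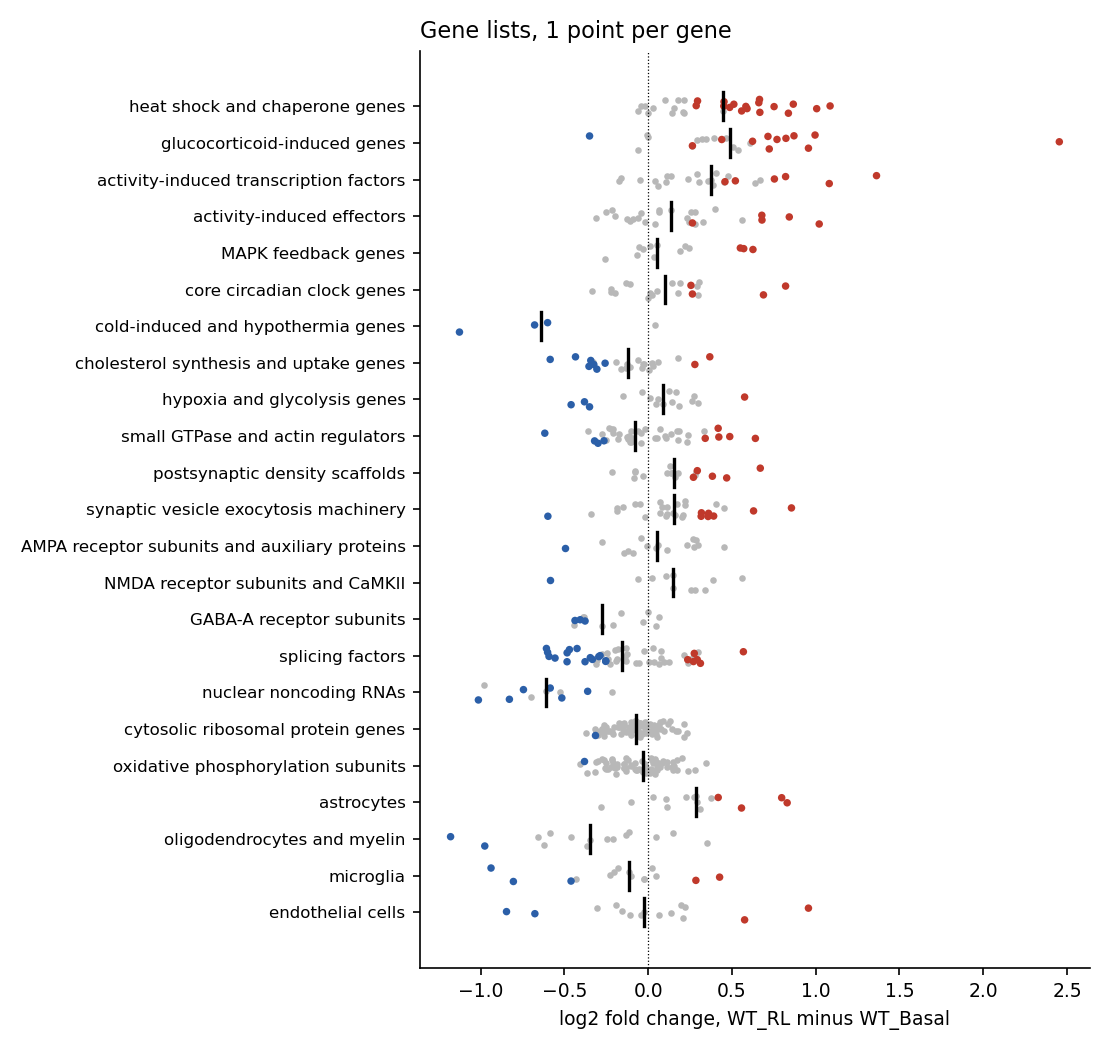
Each row is 1 of 23 gene lists, each point a gene, the x axis its log2 fold change (WT_RL minus WT_Basal) and the black bar the median of the list. Red and blue points are genes called higher and lower and grey points those not called, and the chaperone and glucocorticoid lists have medians of 0.45 and 0.49.

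Genes of cholesterol synthesis and uptake went in both directions. 7 of 24 were called lower and 2 higher, with a median of -0.12, and with the GC correction 3 were called lower and 1 higher. Over all genes 7.42% were called lower and 8.28% higher, and 3.54% and 4.23% with the correction. *Idi1*, an early isoprenoid enzyme, went from 21.1, 19.1 and 23.4 to 12.8, 12.4 and 16.4 CPM (log2 fold change -0.58, adjusted p = 0.00704, and 0.0551 with the GC correction). *Hmgcs1*, which makes the precursor of mevalonate, went from 341, 335 and 369 to 267, 250.3 and 255 CPM (log2 fold change -0.43, adjusted p = 0.000325). *Msmo1*, a sterol demethylase, gave -0.35 (adjusted p = 0.00432, and 0.0501 with the GC correction). All 3 were below every untrained mouse. In WT_OL the list had 5 called higher and 0 lower, against 3.88% and 5.62% of all genes. In WT_RL against WT_OL 5 of the 24 were called lower, against 0.157% of all genes, and 0 without WT_OL replicate 1. Of 17 hypoxia and glycolysis genes, 1 was called higher and 3 lower. *Slc2a1*, the glucose transporter of the blood-brain barrier, went from 95.5, 92.1 and 91.2 to 115, 161 and 144 CPM (log2 fold change 0.58, adjusted p = 0.00271), while *Ankrd37* gave -0.46 (adjusted p = 0.0414) and *Bnip3*, a mitophagy receptor, -0.38 (adjusted p = 0.0273, and 0.361 with the GC correction).

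Of 42 regulators of small GTPases and actin, 5 were called higher and 4 lower, against 8.28% and 7.42% of all genes. Dendritic spines change shape through actin, which LIM kinases protect from cutting by phosphorylating cofilin and which slingshot phosphatases release again. *Limk1* went from 34.2, 39.8 and 36.9 to 42.8, 56.7 and 50.9 CPM (log2 fold change 0.42, adjusted p = 0.00572), *Ssh1*, a slingshot phosphatase, from 8.49, 7.83 and 7.67 to 13.5, 11.99 and 13.6 CPM (log2 fold change 0.64, adjusted p = 0.00259). *Cfl2*, the muscle-type cofilin, went from 96.6, 94.3 and 105 to 60.9, 59.2 and 72.5 CPM (log2 fold change -0.62, adjusted p = 0.000249, and -0.25 and 0.0367 with the GC correction). The kinase and the phosphatase gene rose and this cofilin gene fell, with no overlap between the groups. *Actb*, beta-actin, rose from 764, 842 and 764 to 1114, 1186 and 1026 CPM (log2 fold change 0.49, SE 0.0895, adjusted p = 0.00226), and *Wasf3*, a subunit of the WAVE complex that starts actin branches, from 67.4, 70.3 and 69.04 to 83.5, 97.7 and 82.1 CPM (log2 fold change 0.34, adjusted p = 0.00568). The study named the other genes of its actin panel for other pairs of groups, such as WT_OL against WT_Basal or KO_Basal against WT_Basal. It reported that rises of *Pak6* and *Acta1* in WT after original learning became much smaller after reversal learning. Between WT_RL and WT_Basal these other genes did not pass. *Rac3* gave -0.36 (adjusted p = 0.0727), *Ssh3* -0.12 (0.714), *Pak3* -0.21 (0.505), *Pak6* -0.13 (0.597), *Wasl* -0.22 (0.424), *Acta1* -0.12 (0.669) and *Acta2* -0.21 (0.638), each as a log2 fold change with its adjusted p. *Ccny* itself (chromosome 18, 9312304 to 9450154), at 158, 149.6 and 158 CPM in WT_Basal and 148, 128 and 107 CPM in WT_RL, missed the threshold (log2 fold change -0.29, SE 0.106, adjusted p = 0.0713), although no trained mouse reached the untrained range.

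Receptor lists are read against the 8.28% of all genes called higher and 7.42% called lower. Of 16 genes of AMPA receptors and their partners 0 were called higher and 1 lower, *Gria2*, which sets calcium permeability, at -0.49 (adjusted p = 0.0257, and 0.586 with the GC correction). Among 11 genes of NMDA receptors and calcium/calmodulin kinases 0 were called higher and 1 lower, *Camk4*, a nuclear kinase, at -0.59 (adjusted p = 0.0161). Of 13 GABA-A receptor subunits 0 were called higher and 3 lower, and with the GC correction 0 and 1. *Gabra4* fell from 151, 154 and 155 to 124, 112 and 104 CPM (log2 fold change -0.44, adjusted p = 0.00180, and -0.27 and 0.0451 with the GC correction). On the postsynaptic side, 5 of 18 scaffold genes were called higher and 0 lower. *Shank1* went from 239, 276 and 205 to 408, 367 and 366 CPM (log2 fold change 0.67, adjusted p = 0.00304) and was the 1 called with the GC correction, while *Homer3* (log2 fold change 0.47), *Shank2* (log2 fold change 0.38) and *Sipa1l1* (log2 fold change 0.29) were not. On the presynaptic side, 7 of 30 genes of vesicle release were called higher and 1 lower, and 2 and 0 with the correction. *Vamp1*, a vesicle SNARE, rose from 121, 129.5 and 129.8 to 145, 212 and 248 CPM (log2 fold change 0.63, adjusted p = 0.00636). *Syt2*, the fast calcium sensor, went from 15.9, 12.9 and 17.6 to 20.6, 28.4 and 39.8 CPM (log2 fold change 0.86, adjusted p = 0.0348) and was called in 1 of the 6 fits without a library, and *Syn1* gave 0.39 and *Sypl* -0.60. The calls of *Syt2*, *Syn1* and *Sypl* ended with the GC correction, at adjusted p of 0.0812, 0.226 and 0.0762. Within WT_RL, *Vamp1* and *Syt2* were lowest in replicate 1 and highest in replicate 3, and so was the thalamic marker *Slc17a6*, at 28.4, 61.02 and 93.9 CPM. In KO the change was -0.01 for *Vamp1* (adjusted p = 0.967) and 0.38 for *Syt2* (adjusted p = 0.305). The part of neighbouring tissue in both genes was not tested. Of 30 potassium channel genes, *Kcnj10*, the astrocytic inward rectifier, was called higher (log2 fold change 0.53, adjusted p = 0.0218, called in 1 of the 6 fits without a library), and *Kcnv1* (log2 fold change -0.63, adjusted p = 0.00224) and *Kcnk2* (log2 fold change -0.35, adjusted p = 0.00765) lower.

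Genes that process RNA were called in both directions. Of 50 splicing factors 15 were called lower and 6 higher, against 7.42% and 8.28% of all genes. With the GC correction 6 were called lower and 1 higher, against 3.54% and 4.23%. *Luc7l2*, a component of the U1 particle, went from 192, 164 and 182 to 113, 104 and 141 CPM (log2 fold change -0.59, adjusted p = 0.00270) and was called with the correction, and *Hnrnpa1* (log2 fold change -0.61, adjusted p = 0.0209) was not. *Nova2*, the neuronal splicing regulator, rose by 0.57 (adjusted p = 0.0166), a call that ended with the correction (adjusted p = 0.0897). Of 11 nuclear noncoding RNAs 6 were called lower and 0 higher, and with the correction 0 of the 11. *Snhg14*, the long host RNA of the imprinted Angelman region, gave -1.01 (adjusted p = 0.00258, 0.0817 with the correction), *Malat1*, of nuclear speckles, -0.83 (0.0398, 0.117), *Kcnq1ot1* -0.74 (0.0219, 0.115) and *Rian* -0.58 (0.00166, 0.372). Ribosomal and respiratory chain genes were called at shares below those of all genes. 0 of 77 cytosolic ribosomal protein genes were called higher and 1 lower, *Rpl22* (log2 fold change -0.31, adjusted p = 0.00634), and 0 and 1 of 73 subunits of oxidative phosphorylation, *Cox6c* (log2 fold change -0.38, adjusted p = 0.0467, and 0.111 with the GC correction). Of 31 proteasome subunits 4 were called higher and 3 lower, against 8.28% and 7.42% of all genes. With the GC correction the counts were 1 and 1, and in fits without a library 0 to 5 and 2 to 4. Among them, *Psmd2* was at 0.28, *Psma4* at -0.34 and *Psma1* at -0.28, and these 3 calls ended with the correction, at adjusted p of 0.0526, 0.0558 and 0.285.

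Markers of hippocampal neurons were present in every library. The summed level of 8 CA1 genes ran from 687 to 987 CPM and that of 10 dentate granule genes from 639.5 to 826 CPM over the 6 libraries. Over all genes 15.7% were called in one direction or the other, and of the neuron markers 0 of 8 for CA1, 1 of 9 for CA3 and CA2 (*Elavl4*, -0.52), 1 of 10 for dentate granule neurons (*Il16*, 0.55), 1 of 12 for immature neurons (*Dcx*, -0.59, called in 1 of the 6 fits without a library) and 0 of 12 for interneurons, where *Gad1*, the GABA-making enzyme, stood at 348, 385 and 396 CPM in WT_Basal and 417, 363 and 394 CPM in WT_RL (log2 fold change 0.06, adjusted p = 0.832). The calls for *Elavl4*, *Il16* and *Dcx* ended with the GC correction.

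Among glia, 4 of 15 astrocyte genes were called higher and 0 lower, and with the GC correction 4 and 0, where *Gja1*, the gap junction protein connexin 43 (log2 fold change 0.27, adjusted p = 0.0485 with the correction), came in, named after its value was seen, and *Agt* dropped out. Over all genes 8.28% were called higher, and 4.23% with the correction. The summed level of the list was 7544, 8149 and 7511 CPM in WT_Basal and 9414, 11070.0 and 8970.0 CPM in WT_RL. *Slc1a2*, the main glutamate transporter of astrocytes, went from 2508, 2645 and 2416 to 3900.0, 3923 and 3339 CPM (log2 fold change 0.56, SE 0.103, adjusted p = 0.00237). *Gjb6*, the gap junction protein connexin 30, went from 45.3, 44.03 and 46.6 to 77.2, 88.8 and 73.2 CPM (log2 fold change 0.80, adjusted p = 0.000298). The growth factor receptor *Fgfr3* rose by 0.42 (adjusted p = 0.00619). *Agt*, angiotensinogen, gave 0.83 (adjusted p = 0.0300) and was called in 1 of the 6 fits without a library, and the call ended with the GC correction (adjusted p = 0.0895). *Etnppl* and *Kcnj10*, named above, are also known from astrocytes and were not in the list. *Kcnj10* overlapped between groups, at 201, 202 and 218 CPM in WT_Basal and 217, 330 and 375 CPM in WT_RL. *Agt* was at 22.2, 24.8 and 23.01 and 27.7, 45.7 and 59.3 CPM. Within WT_RL both were lowest in replicate 1 and highest in replicate 3, as was the thalamic marker *Slc17a6*. In KO the changes were 0.035 for *Kcnj10* and -0.25 for *Agt*, and neither was called. The part of neighbouring tissue in both was not tested.

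Oligodendrocyte genes were uneven between mice. 2 of 15 were called lower and 0 higher, *Aspa* and *Opalin*, a myelin membrane protein that went from 47.2, 39.2 and 43.6 to 15.97, 24.2 and 25.7 CPM (log2 fold change -0.97, adjusted p = 0.00235). The summed level of the list was 11440.0, 8349 and 12150.0 CPM in WT_Basal and 5481, 8007 and 13970.0 CPM in WT_RL, so that the groups overlapped and WT_RL replicate 3 was the highest of all. Of 11 genes of oligodendrocyte precursors, *Gpr17* was called higher (log2 fold change 0.54, adjusted p = 0.0201, and 0.0614 with the GC correction).

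Microglial and endothelial genes moved both ways. Of 15 microglial genes 3 were called lower and 2 higher, against 7.42% and 8.28% of all genes. *P2ry12*, the purine receptor of resting microglia, went from 58.1, 62.3 and 60.7 to 34.2, 35.9 and 32.4 CPM (log2 fold change -0.80, SE 0.0824, adjusted p = 3.32e-05), and *Gpr34*, a lipid receptor, from 20.9, 21.01 and 18.97 to 10.3, 9.47 and 10.6 CPM (log2 fold change -0.94, adjusted p = 0.000145). In both the trained mice were below the untrained ones, and with the GC correction the log2 fold changes were -0.50 and -0.57. *Siglech* (log2 fold change -0.46, lower) and *Tmem119* (log2 fold change 0.43, higher) were not called with the GC correction. Of 15 endothelial genes, *Mfsd2a* and *Slc2a1* were called higher and *Itm2a* (log2 fold change -0.85, adjusted p = 0.000305) and the organic anion transporter *Slco1a4* (log2 fold change -0.68, adjusted p = 0.000685, and -0.44 with the GC correction) lower. Of 14 genes of vascular smooth muscle and pericytes and 13 of meningeal fibroblasts 0 were called, with *Rgs5*, a pericyte marker, at -0.27 (adjusted p = 0.105).

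Several genes high in single libraries are known as markers of tissue outside the hippocampus. Over all genes 8.28% were called higher, and 4.23% with the GC correction. Of 14 genes of thalamic and habenular neurons 4 were called higher, and 2 with the GC correction, where the calls of *Pou4f1* (adjusted p = 0.0613) and *Chrna3* (adjusted p = 0.0595) ended. The count was 6 without WT_RL replicate 1, 1 without WT_Basal replicate 3 and 0 without any other library of the 6. *Slc17a6*, the vesicular glutamate transporter of thalamus and midbrain, was at 14.9, 21.4 and 29.9 CPM in WT_Basal and 28.4, 61.02 and 93.9 CPM in WT_RL. *Pou4f1*, of the habenula, was at 0.133, 0 and 0.0318 and 0, 2.23 and 4.39 CPM, and *Chrna3* at 0.366, 0.333 and 0.223 and 0.357, 2.57 and 5.06 CPM. In each, WT_RL replicate 1 was within the untrained range and replicates 2 and 3 were above it, and *Lef1* (4.16, 4.30 and 4.52 CPM in WT_Basal, 4.75, 8.51 and 10.7 CPM in WT_RL) was highest in replicate 3. 3 midbrain factors, picked with their values in view, stood out as well. In the WT_RL libraries *Tfap2b* was at 0.192, 6.50 and 14.02 CPM, *Shox2* at 0.0549, 6.70 and 11.7 CPM and *Pax7* at 0.0274, 4.13 and 6.63 CPM, and in WT_Basal none of them was above 0.366 CPM. Choroid plexus varied in both groups. *Ttr*, the transthyretin of choroid epithelium, was at 2185, 759.5 and 4004 CPM in WT_Basal and 12.2, 759 and 7685 CPM in WT_RL (log2 fold change -2.14, adjusted p = 0.392). *Enpp2*, also of choroid epithelium, gave -0.65 (adjusted p = 0.636). The 18 choroid genes, 0 of them called, had a median of -0.82 and a summed level from 229 to 13150.0 CPM within WT_RL and from 1505 to 6678 CPM within WT_Basal. Without WT_RL replicate 3, 15 of the 18 were called lower. *Gh*, the growth hormone of the pituitary, was at 0.0666, 32.3 and 7.32 CPM in WT_Basal and 0, 0.226 and 0 CPM in WT_RL (adjusted p = 0.0278). It was called in 1 of the 6 fits without a library. *Chga*, of secretory granules, was called higher (log2 fold change 0.42, adjusted p = 0.0102, and 0.120 with the GC correction).

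**Figure D4:**
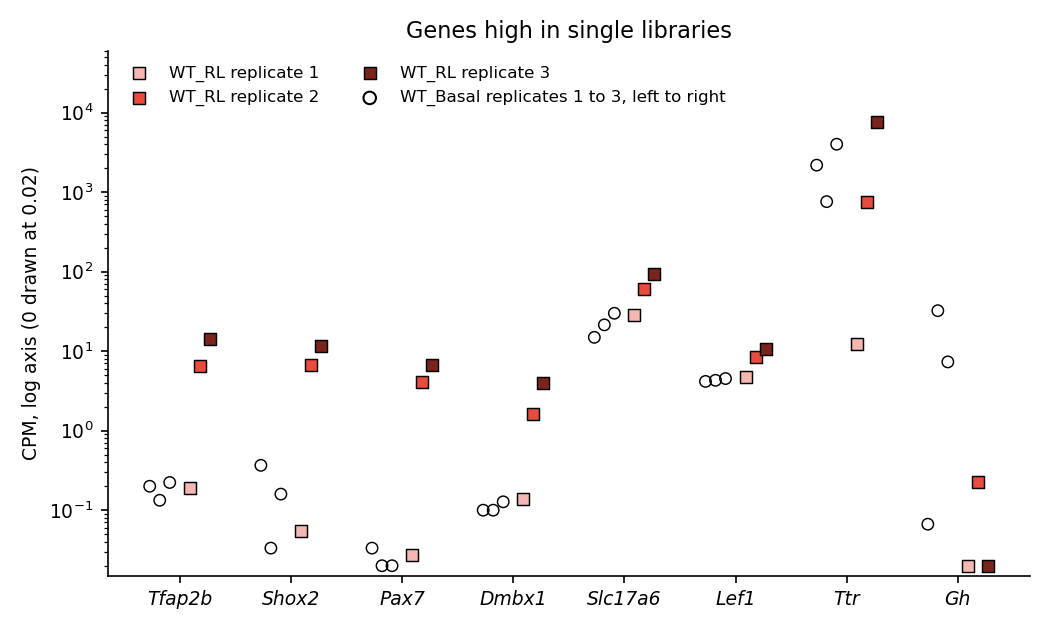
CPM on a log axis for 8 genes high in single libraries, 1 point per library, with open circles for WT_Basal and squares for WT_RL, and 0 drawn at 0.02. WT_RL replicates 2 and 3 stand above all other libraries for *Tfap2b*, *Shox2* and *Pax7*, and *Ttr* ranges from 12.2 to 7685 CPM within WT_RL.

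Counts of other tissue lists were low. Of the ependymal (10), hypothalamic (11 listed of 14), striatal (10) and cortical (10) genes 0 were called, with a striatal median of -0.79 and summed striatal levels of 544, 176 and 519 CPM in WT_Basal and 199, 194 and 248 CPM in WT_RL. Of 5 listed pituitary genes 1 was called higher and 1 lower, and 1 of 7 red cell genes was listed and not called. Without WT_RL replicate 2, *Plin4* was higher by a log2 fold change of 2.97 and *Hspa5* by 0.92, and without WT_RL replicate 3 by 2.08 and 0.67. The part that such tissue has in the other calls was not tested beyond these fits.

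WT_RL and WT_OL mice, which share no libraries with each other, differed at 40 genes (0.261%), 16 higher (0.104%) and 24 lower (0.157%) after reversal learning, and 2507 genes (16.4%) had an unadjusted p under 0.05. The count rested on single libraries. It was 0 without WT_OL replicate 1, 1 without WT_OL replicate 2, 2042 without WT_OL replicate 3, 6 without WT_RL replicate 2, 90 without WT_RL replicate 1 and 0 in a fit of only those 6 libraries. The 4 genes of lowest p that were higher in WT_RL were *Inhba* (log2 fold change 0.79, SE 0.120, adjusted p = 0.0197), *Plin4*, *Lman2l* (log2 fold change 0.48, adjusted p = 0.0253), a cargo lectin of the secretory route, and *Gpt2* (log2 fold change 0.38, adjusted p = 0.0253), a mitochondrial alanine aminotransferase. *Inhba* was at 2.26 ± 0.217 CPM in WT_Basal, 2.02 ± 0.389 CPM in WT_OL and 4.21 ± 0.349 CPM in WT_RL (SD, n = 3 each). *Gpt2* was at 63.5, 67.8 and 63.98 CPM in WT_Basal and 111, 118 and 108 CPM in WT_RL, and *Lman2l* at 37.1, 41.8 and 37.5 and 57.2, 56.5 and 56.01 CPM. The 4 of lowest p in the other direction were *Ciart*, a repressor of the clock (log2 fold change -0.97, adjusted p = 0.0137), *Per1* (log2 fold change -0.55, adjusted p = 0.0194), *Ddit4* (log2 fold change -0.49, adjusted p = 0.0194) and *Slc7a11*, the cystine transporter (log2 fold change -0.80, adjusted p = 0.0210). *Per1* was at 65.2 ± 3.92, 115 ± 5.50 and 78.5 ± 5.15 CPM and *Ddit4* at 83.95 ± 7.39, 92.7 ± 3.06 and 65.5 ± 2.69 CPM in WT_Basal, WT_OL and WT_RL (SD, n = 3 each). *Ciart*, at 10.4 ± 0.585, 18.7 ± 4.12 and 8.92 ± 0.787 CPM in the same order, did not differ between WT_RL and WT_Basal beyond the threshold (log2 fold change -0.20, adjusted p = 0.317).

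The KO mice give the same contrast in libraries that WT_RL and WT_Basal do not share. KO_RL against KO_Basal gave 3612 calls (23.6%), 1776 higher and 1836 lower. Of the 1270 genes higher in WT_RL, 1220 (96.06%) had the same sign in KO and 870 (68.5%) were called higher there, and of the 1137 lower genes 1121 (98.59%) and 852 (74.93%), with 0 called in the opposite direction. Over all genes 75.75% had the same sign. The correlation of library deviations with GC content was negative in all 6 untrained libraries of the 2 genotypes, and its part in the shared direction was not tested. *Ccny* itself was at 91.97 ± 3.33 CPM in KO_Basal and 79.7 ± 4.15 CPM in KO_RL, below the 155 ± 4.87 CPM of WT_Basal (SD, n = 3 each). The log2 fold change in KO was 2.06 for *Plin4* (adjusted p = 0.000810), 0.75 for *Hspa5* (adjusted p = 0.000733), 1.28 for *Fosb* (adjusted p = 5.42e-05) and -0.92 for *Rbm3* (adjusted p = 0.000231), all in the direction seen in WT. The list counts are read against all 15329 genes, of which 1776 were called higher and 1836 lower in KO, and 1270 and 1137 in WT. The chaperone list had 17 of 30 called higher in KO as well and the glucocorticoid list 16 of 24. Other lists had other counts in KO. Of 77 cytosolic ribosomal protein genes 29 were called lower there against 1 in WT, and of 73 subunits of oxidative phosphorylation 25 against 1. Of 18 choroid plexus genes 14 were called higher in KO and 0 in WT, and of 15 astrocyte genes 1 was called higher and 2 lower in KO against 4 and 0 in WT. Whether these lists differ between genotypes was not tested, and the test of single genes is given last. *Etnppl* (log2 fold change -0.09, adjusted p = 0.859), *Fos* (log2 fold change -0.06, adjusted p = 0.880) and *Zmat1* (log2 fold change -1.11, adjusted p = 0.203) were not called in KO. *Fos* was at 16.06 ± 5.67 CPM in KO_Basal and 14.88 ± 2.01 CPM in KO_RL, and at 6.58 ± 0.941 CPM in WT_Basal and 15 ± 1.35 CPM in WT_RL. *Etnppl* was at 21.6 ± 7.86, 19.48 ± 3.57, 12.89 ± 2.57 and 37.85 ± 8.99 CPM in the same order (SD, n = 3 each). For both genes the untrained level was thus higher in KO than in WT.

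**Figure D5:**
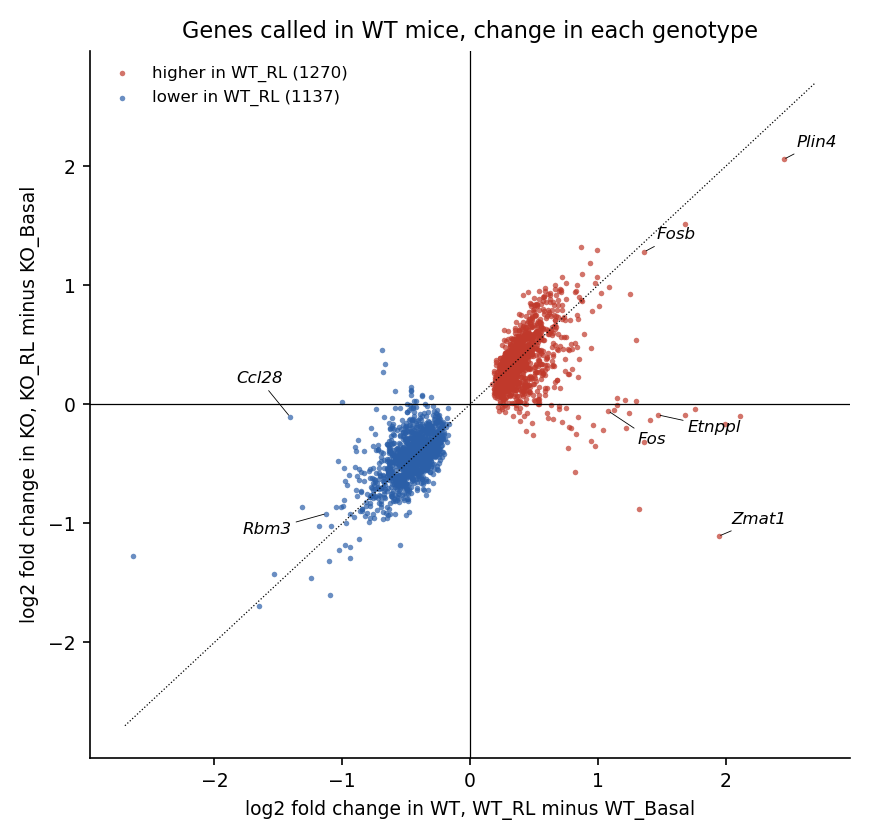
Each point is a gene called in WT, with its log2 fold change in WT (WT_RL minus WT_Basal) on the x axis and in KO (KO_RL minus KO_Basal) on the y axis. Red points are the 1270 genes higher in WT_RL and blue points the 1137 lower ones, the dotted line marks equal change, and *Zmat1*, *Etnppl* and *Fos* lie near or below 0 in KO.

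When the difference between genotypes in the change was itself tested, 0 genes passed an adjusted p under 0.05 by limma on the deposited values and 0 by limma voom on the recovered reads, and 765 (4.99%) had an unadjusted p under 0.05. Leaving out a library gave 32 genes without WT_RL replicate 1, 43 without WT_RL replicate 3, 1 without KO_RL replicate 2 and 0 without any other. The 2 genes of lowest p were *Rit2*, a neuronal small GTPase, and *Ctxn2*, a cortexin. *Rit2* was at 79.6, 91.8 and 91.04 CPM in WT_Basal and 79.7, 80.7 and 77.6 CPM in WT_RL, with a log2 fold change of -0.14 in WT and -0.65 in KO and a difference, KO minus WT, of -0.51 (SE 0.110, adjusted p = 0.908). *Ctxn2* gave 0.13 in WT and -0.62 in KO, a difference of -0.76 (SE 0.179, adjusted p = 0.908). For *Fos* the difference was -1.14 (SE 0.310, adjusted p = 0.908), so that its calls in WT and not in KO were not shown to differ between genotypes.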

How the data were processed

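Poly(A) RNA of the hippocampus was sequenced from 18 libraries. For 15329 genes the authors deposited log2 values, made from STAR v2.5.1 alignments to mm10, per-gene read counts of STAR and TMM normalization in edgeR v3.12.1. Their methods describe CPM floored at 1. The deposited log2 values are instead log2(CPM + 1), since undoing that scale gives whole reads, within a tolerance of 0.01 reads, for 100% of values. Floored CPM was an alternative. Whether reads were counted by strand is not given in the sources used here, so genes with overlapping exons are uncertain.

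Group means were tested in R 4.3.3 by limma 3.58.1 (1 mean per group over 18 libraries, 12 residual degrees of freedom, variance moderated along its trend), two-sided, with Benjamini-Hochberg adjustment over all genes. 3 mice against 3 cannot give an exact permutation p under 0.1. Depth was 29248557 to 37915576 reads. The script was tested on simulated data. The GC correction removed from each library a smooth trend of its deviations with transcript GC content (GENCODE M21, GRCm38, found for 99.31% of genes). Library weights used statmod 1.5.0, figures matplotlib 3.10.9, and tables pandas 2.3.3 and numpy 2.4.6 in Python 3.11.15.

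The members and the 41 lists (817 genes) were chosen with earlier results of these data known. Named are the 12 largest rises and falls among called genes with separated mice and at least 1 CPM, up to 4 called genes per list, *Ccny* and the actin genes of the study, the 4 lowest p each way against WT_OL and the 2 lowest for the genotype difference. Lists without calls are given mostly by counts, and some genes that met the rule are not reported here. The rule for the planned count tests could not be applied to log2 values.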

Additional observations from a re-analysis of the deposited data

How the results depend on the processing

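Of 120 called genes named in the text, 0 changed sign under any alternative, and between 82 and 120 of those tested were called in the same direction, the fewest with the GC correction, with or without the replicate block, and without WT_Basal replicate 1. Called genes that met the rule for naming but are not reported here were left out of these counts. Not all of them kept their sign with the GC correction. The count of genes at an adjusted p under 0.05 between WT_RL and WT_Basal was 2407 and moved by over 1.5 times with the GC correction (1192), with the replicate block and GC correction (1130), in a fit of only the 6 libraries (1523) and with voom on the recovered reads of only those 6 (1356), a choice made after seeing the data. Leaving out 1 library gave 1137, without WT_Basal replicate 3, to 2323, without WT_RL replicate 3, and 1184 without WT_Basal replicate 1 and 1513 without WT_RL replicate 2. Scaling without TMM factors gave 2522 genes, 963 higher and 1559 lower. The 458 genes past 1.5-fold with an unadjusted p under 0.05 became 190 on log2(CPM + 5), 275 with the GC correction, 274 with the block and GC correction, 841 with voom, 805 with voom on the 6 libraries and 852 by the ratio of the groups' mean CPM, and 432 to 670 without a library. Between WT_RL and WT_OL, 40 genes became 2467 with library weights, 0 in a fit of only those 6 libraries and 0 with voom on them, and 0 to 2042 without a library, the extremes without WT_OL replicates 1 and 3, with 1 without WT_OL replicate 2, 6 without WT_RL replicate 2 and 90 without WT_RL replicate 1. For the genotype difference 0 became 0 to 43 without a library, with 32 lower without WT_RL replicate 1, 43 higher without WT_RL replicate 3 and 1 without KO_RL replicate 2. In each case the cause was not tested, except that fits of 6 libraries have fewer residual degrees of freedom, 4 against 12. Uncalled genes that changed sign were *Pak3* (0.075) and *Rit2* (0.12) with the GC correction, with or without the block, and without a library *Ttr* (-4.23 to 0.36), *Enpp2* (-1.92 to 0.38), *Ssh3* (-0.213 to 0.026), *Pak6* (-0.253 to 0.072), *Acta1* (-0.222 to 0.037) and *Acta2* (-0.475 to 0.098), as log2 fold changes.

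Deviations of same-numbered mice gave a mixed result, with r of -0.18, 0.16 and 0.38 for replicates 1 to 3. Of the 3 WT_RL mice, 2 correlated best with their own number. The study states no pairing, and the numbers were not taken as pairs. The replicate block gave 2369, 456, 37 and 0 genes for the 4 counts above, and 116 of the 120 named calls held. Tests of the counts with edgeR and DESeq2 were planned and not run, because the deposited unit is a log2 value, and voom on all 18 libraries, added in their place after seeing the data, gave 2334, 841, 35 and 0 genes. At 1 read per 0.0274 to 0.0333 CPM, differences in genes below about 1 CPM rest on few reads.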

Other observations

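Of the genes called higher in WT_RL than in WT_Basal, 403 were called in all 6 fits that left out 1 library, and 312 of these also with the GC correction. Of the genes called lower the counts were 500 and 265. With the correction, 31 of the 1137 lower genes and 0 of the 1270 higher genes changed sign, and the median log2 fold change was 0.28 among the higher genes and -0.28 among the lower ones.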
